A study of Mus musculus with 12 samples.

Results

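The genes described here make, cleave and recycle ceramide, the central lipid of sphingolipid metabolism, and among them is acid sphingomyelinase, an enzyme on which amitriptyline (AMI) acts. The set was given as 10 gene symbols, and every probe annotated with one of them was taken, whatever its values: Smpd1, Smpd3, Asah1, Psap, Sgms1, Ugcg, Lass2, Sptlc1, Sptlc2 and Sgpl1. Of these 10 genes 9 had a probe, 16 probes in all, out of 18097 gene symbols on 25697 probes. Sgms1, which encodes a sphingomyelin synthase of the Golgi, was not analysed here. A probe was tested in a tissue where 3 or more of the 6 arrays had a detection p no higher than 0.05. By that rule 14 of the 16 probes, from 8 genes, were tested in every comparison, and the remaining 2 were detected on 0 and 1 of the 12 arrays.

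Male 3×TgAD mice, a triple transgenic model of Alzheimer's disease, drank water with amitriptyline-hydrochloride (AMI, 100 µg per g body weight) or plain water (vehicle) for 4 months, from an age of 14 months to 18 months. All mice carried the transgenes, BrdU, a label for dividing cells, was given within both groups, and no wild-type mice were compared. RNA of hippocampus (HIP) and cortex (CTX) was hybridised to mouse BeadChip expression arrays. There were 3 arrays for each of the 4 groups (HIP vehicle, HIP AMI, CTX vehicle, CTX AMI) and 12 arrays in all. The sources used here do not tie samples to mice, so that p-values measure the spread between these arrays, and levels describe tissue pieces in which fewer cells of a type and less RNA per cell cannot be told apart.

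Sphingomyelin, a lipid of the plasma membrane and of myelin, is cleaved to ceramide by sphingomyelinases. Acid sphingomyelinase, the product of Smpd1, does so in the lysosome, and AMI belongs to the cationic amphiphilic drugs called functional inhibitors of this enzyme, since they gather in lysosomes, release the enzyme from the inner membrane and lead to its breakdown. The arrays measure mRNA, not the protein or its activity. Ceramide is also built anew from serine and palmitate by serine palmitoyltransferase (Sptlc1, Sptlc2) and ceramide synthases (Lass2, now called Cers2), is converted to glucosylceramide (Ugcg), or is broken down by acid ceramidase (Asah1) to sphingosine, whose phosphate is cleaved for good by Sgpl1.

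Each probe is a 50-base piece of 1 transcript, and the probes of 1 gene read different places of it. The first 30 bases of the tested probes of Smpd1, Asah1 and Lass2, which are described probe by probe, are shown, 5′ to 3′, with the first base of the probe counted from the start of its transcript and with the position of the whole probe as the array's annotation gives it, on a mouse build that the annotation does not name.
Smpd1, base 2212, chr7:112706758-112706807, + strand: gtctgacctgggctttgtcgagggctcagt
Smpd1, base 1515, chr7:112705933-112705982, + strand: atgaggaaactctgagccgaccactagctg
Smpd1, base 1237, chr7:112705061-112705110, + strand: ccgcctcatctctctcaatatgaatttttg
Asah1, base 1838, chr8:42426290-42426339, - strand: ctctttttcctagttattctgcctgccagt
Asah1, base 11, chr8:42459921-42459970, - strand: agtccctcggagcggcgcttgcagctggga
Lass2, base 1924, chr3:95127397-95127446, + strand: gccacaactacaggtaggacctgatatttc
Lass2, base 1595, chr3:95127068-95127117, + strand: cttcaagccagggttgtgccttactgtccc
Lass2, base 1849, chr3:95127322-95127371, + strand: gctatgacagctggtgtggagtagaagggc
The Asah1 probe at base 11 reads the 5′ end of the transcript, whereas the other probes shown lie further downstream. The brightest probe of a gene stands for it where 1 value is given: base 2212 for Smpd1, 1838 for Asah1 and 1924 for Lass2.

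Before any comparison, the quality of the arrays was examined. Between 49.0% and 51.7% of the probes were detected on an array, replicate arrays of 1 group correlated at r = 0.986 to 0.994 over log2 signals, and the SD of log2 signals was 1.51 to 1.85 on hippocampal and 1.42 to 1.68 on cortical arrays. The hippocampal arrays numbered 1 of both treatments were dim (mean signals 319 and 271, against 447 to 567 for the other hippocampal arrays). Cortical arrays had mean signals of 284 to 359, apart from CTX AMI array 2 at 484, so the 2 were dim among hippocampal arrays only. Choroid plexus markers were high on HIP vehicle array 3, with a mean level of 4.09 against 1.2 to 1.63 on the other hippocampal arrays. Hippocampal and cortical arrays were exported in separate projects by different software, so that tissue and export project, with any batch behind it, cannot be told apart. Defining markers of the tissues were examined against the labels. Of 4 hippocampal markers tested, 3 (C1ql2, Prox1 and Dsp) were called higher in hippocampus. Wfs1 went the other way and was not called, with hippocampus minus cortex at -0.56 in vehicle and -0.54 in AMI. Dsp was detected on too few cortical arrays to be tested in cortex, and it entered through hippocampus alone. Its levels were -0.02 in HIP vehicle and -1.19 in CTX vehicle, and its call cannot weigh on the labels as those of C1ql2 and Prox1 do. Of 7 cortical markers in vehicle 5 were lower in hippocampus and Fezf2 was higher. Striatal markers averaged 1.5 to 1.98 on the cortical arrays and 0.19 to 0.55 on the hippocampal ones.

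All levels below are log2 signals centred on the mean of the array and scaled to a common SD, so that a level of 0 is the mean of all probes and a difference of 1 is about a doubling of signal. Levels are compared between groups for the same probe, never between probes. On this scale the acid sphingomyelinase gene was among the well measured members. The Smpd1 probe at base 2212 read 3.67, 3.73 and 3.79 in HIP vehicle, 3.71, 3.52 and 3.57 in HIP AMI, 4.16, 4.18 and 4.18 in CTX vehicle, and 4.12, 3.92 and 4.08 in CTX AMI. All 6 cortical arrays were above all 6 hippocampal arrays, and within each tissue the AMI mean was the lower one.

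**Figure D1:**
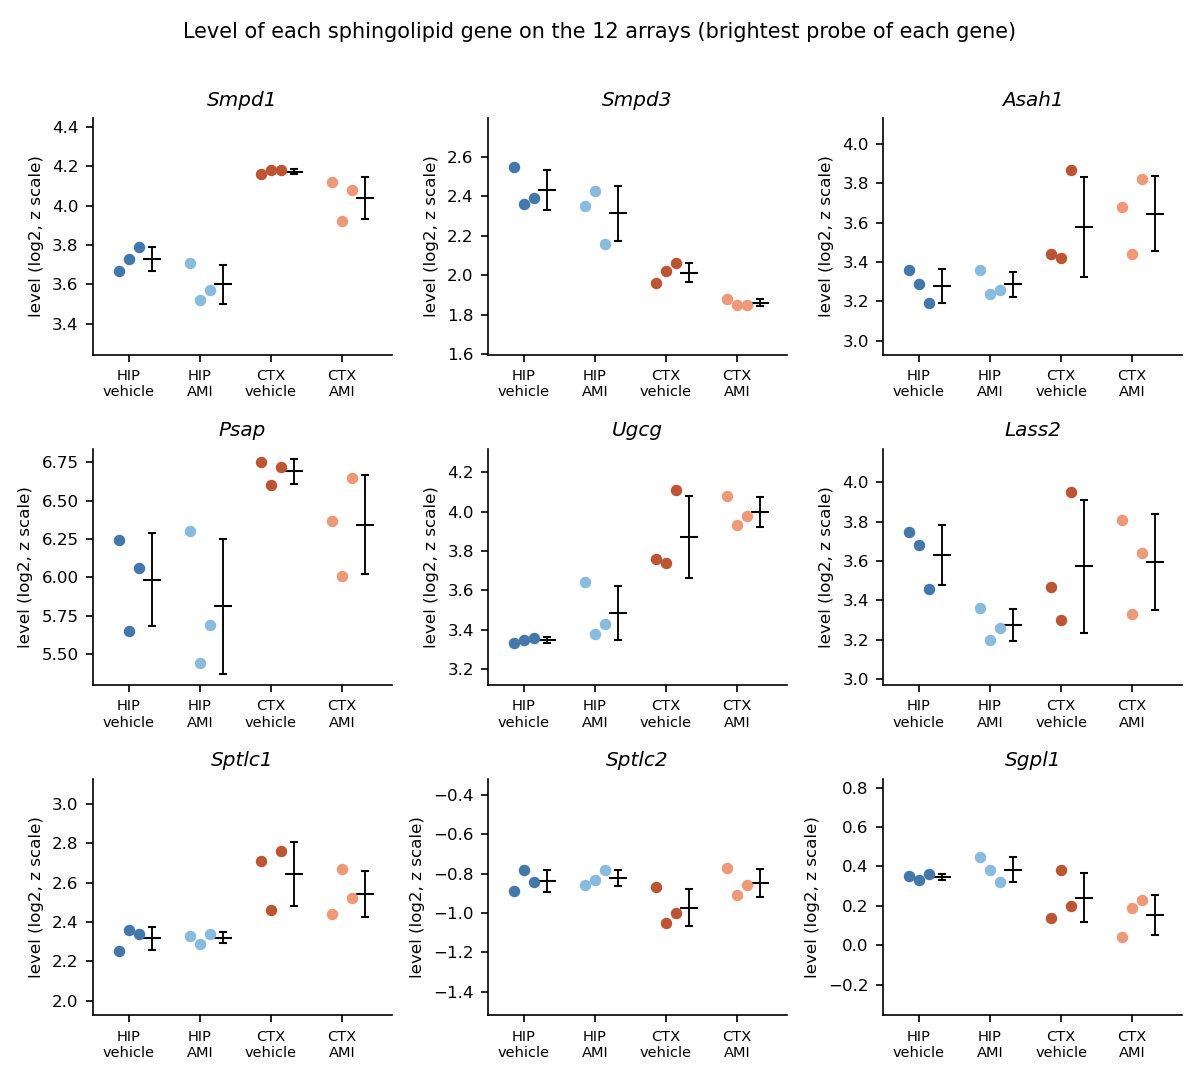
Level of the brightest probe of each of the 9 genes on every array (points, log2 z scale, 3 arrays per group) with the group mean and SD (bar). Smpd1 and Ugcg lay lower in hippocampus (HIP) than in cortex (CTX), Smpd3 lay higher, and Lass2 was lowest in HIP AMI.

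AMI and vehicle were first compared within each tissue, to ask whether 4 months of a drug that acts on acid sphingomyelinase went along with a change in mRNA of the enzyme or of its pathway. In limma, 0 of the 14 probes reached an adjusted p under 0.05 in either tissue (background 0% of 13163 tested probes in hippocampus and 0% of 12944 in cortex). At an unadjusted p under 0.05 there were 3 of 14 in hippocampus (background 2.35%), which were the 3 probes of Lass2, and 1 of 14 in cortex (background 6.28%), the Asah1 probe at base 11. The median difference of the 14 probes was -0.01 in both tissues, against 0.01 for all tested probes in hippocampus and 0.02 in cortex.

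For Smpd1 the intervals were narrow enough to bound a change. AMI minus vehicle at base 2212 was -0.13 in hippocampus (95% interval -0.35 to 0.08, unadjusted p = 0.200 in limma) and -0.13 in cortex (-0.35 to 0.08, unadjusted p = 0.193), with adjusted p of 1.0 and 0.860. In cortex all 3 AMI arrays were below all 3 vehicle arrays at this probe. The probe at base 1515 went the other way there, with 2.37, 2.43 and 2.45 in CTX AMI against 2.27, 2.32 and 2.28 in CTX vehicle (difference 0.12, 95% interval -0.07 to 0.32). At base 1237 the cortical difference was 0.11 (-0.24 to 0.45). The 3 Smpd1 probes thus had different signs in cortex, and the difference of their mean was 0.03. Striatal markers moved with base 2212 there: all 5 had a lower mean in CTX AMI, with a median difference of -0.32, and their mean level ran from 1.5 to 1.64 in CTX AMI and from 1.89 to 1.98 in CTX vehicle. Their part in the Smpd1 value was not tested. In hippocampus bases 1515 and 1237 gave 0.08 (-0.31 to 0.47) and -0.02 (-0.23 to 0.18), with overlapping groups.

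Smpd3 encodes a neutral sphingomyelinase that is abundant in brain, and its AMI differences did not pass the test. Its probe read 2.35, 2.43 and 2.16 in HIP AMI against 2.55, 2.36 and 2.39 in HIP vehicle, and 1.88, 1.85 and 1.85 in CTX AMI against 1.96, 2.02 and 2.06 in CTX vehicle. The cortical groups did not overlap, yet the difference of -0.15 (95% interval -0.35 to 0.05, unadjusted p = 0.115, adjusted p = 0.808 in limma) did not pass. The hippocampal difference was -0.13 (-0.37 to 0.12), and the difference between tissues in the AMI effect was 0.03 (-0.26 to 0.31).

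Lass2, the synthase of ceramides with very long acyl chains that oligodendrocytes build into myelin, had the lowest unadjusted p-values of the members in hippocampus. At base 1924 its probe read 3.36, 3.20 and 3.26 in HIP AMI and 3.75, 3.68 and 3.46 in HIP vehicle. At base 1595 the values were 2.41, 2.49 and 2.75 against 2.77, 3.03 and 2.85. At base 1849 they were 1.07, 1.23 and 1.19 against 1.57, 1.57 and 1.39. At each of the 3 probes every AMI array lay below every vehicle array, a separation in that direction that 3.52% of tested probes also had. The differences were -0.36 (95% interval -0.60 to -0.11, unadjusted p = 0.00973), -0.33 (-0.61 to -0.06, unadjusted p = 0.0227) and -0.34 (-0.57 to -0.12, unadjusted p = 0.00723) in limma, or 0.782, 0.793 and 0.788 of the vehicle signal. The adjusted p over all probes was 1.0 for each, and the 3 probes read 1 transcript in the same samples and are not independent of one another.

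In cortex the Lass2 probes did not separate the groups. Base 1924 differed by 0.02 (-0.40 to 0.44), base 1595 by -0.10 (-0.54 to 0.34) and base 1849 by -0.03 (-0.31 to 0.24). The difference between tissues in the AMI effect, tested as the interaction over all 12 arrays, was -0.37 in limma (unadjusted p = 0.128), -0.23 (unadjusted p = 0.362) and -0.31 (unadjusted p = 0.0706), with an adjusted p of 1.0. Without HIP vehicle array 3, on which choroid plexus genes were high, the hippocampal differences were -0.44, -0.35 and -0.40, and without both dim arrays they were -0.34, -0.32 and -0.27. With the arrays centred on their medians and no scaling of the SD, they were -0.25, -0.25 and -0.30 with unadjusted p from 0.130 to 0.392.

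Markers of oligodendrocytes, the cells that make myelin, were also lower in HIP AMI. Of 9 tested oligodendrocyte markers, all 9 had a lower mean in HIP AMI than in HIP vehicle, with a median difference of -0.46. Of these, 4 (Cnp, Tmem10, Mog and Mag) had an unadjusted p under 0.05 in limma. At that p 0.904% of all tested probes were lower in HIP AMI, and 2.35% differed in either direction. None of the 9 markers passed the adjusted p. Their mean level ran from 3.22 to 3.58 on the HIP AMI arrays and from 3.50 to 4.07 on the HIP vehicle arrays, so that the groups overlapped. Myelin basic protein (Mbp) was at 6.52 ± 0.51 in HIP AMI and 6.99 ± 0.48 in HIP vehicle (SD, n = 3). All 9 differences were below 0 with quantile normalization, median centring and neqc as well, with medians from -0.38 to -0.28, and also without HIP vehicle array 3 (-0.61) and without both dim arrays (-0.36). In cortex 6 of 9 were lower, with a median of -0.11 that became 0.03 under median centring, and none had an unadjusted p under 0.05. In the difference between tissues 2 of 9 did (Cnp at -0.41, unadjusted p = 0.0370, and Mog at -0.63, unadjusted p = 0.0498, in limma), with none past the adjusted p. The part of oligodendrocyte content in the Lass2 values was not tested.

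Enzymes of the myelin glycolipids galactosylceramide and sulfatide were measured too. Ugt8a, which makes galactosylceramide from ceramide, was 0.92 ± 0.18 in HIP AMI and 1.39 ± 0.26 in HIP vehicle (SD, n = 3), a difference of -0.47 (95% interval -0.81 to -0.13, unadjusted p = 0.0132, adjusted p = 1.0 in limma) with groups that did not overlap. In cortex it differed by 0.10 (-0.32 to 0.52), and the difference between tissues was -0.57 (unadjusted p = 0.0468, adjusted p = 1.0). Gal3st1, the sulfotransferase that makes sulfatide, differed by -0.27 (-0.60 to 0.07) in hippocampus, by 0.18 (-0.06 to 0.41) in cortex and by -0.44 between tissues (unadjusted p = 0.0340, adjusted p = 1.0).

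**Figure D2:**
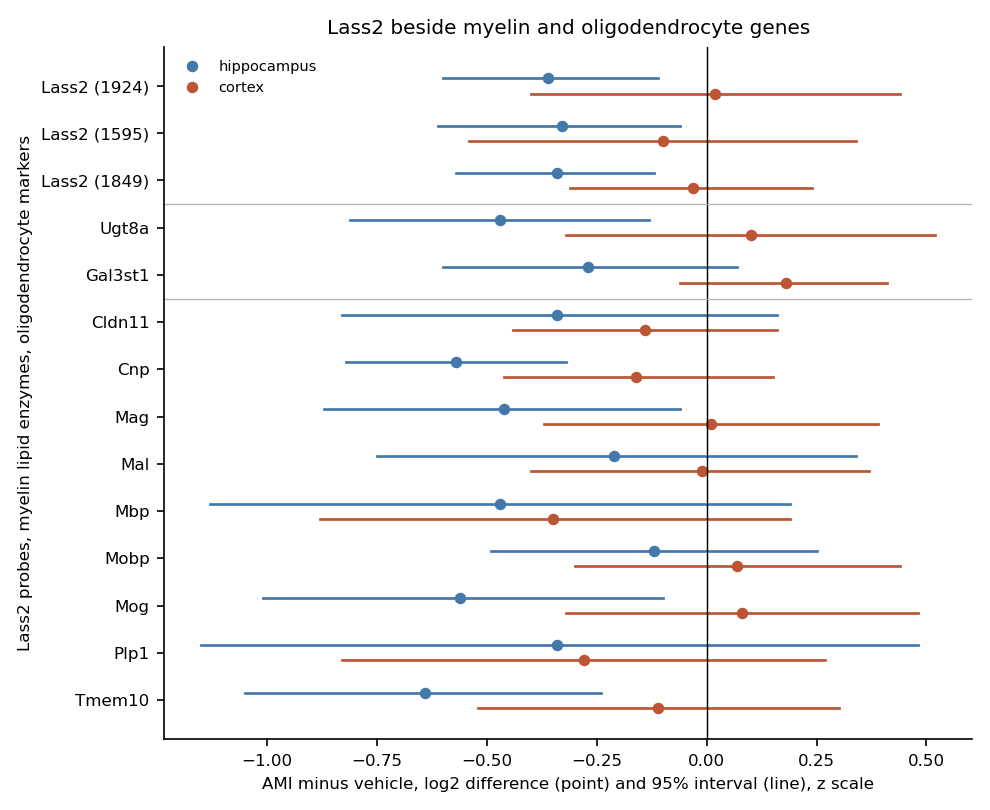
AMI minus vehicle (log2, point) with its 95% interval (line) for the 3 Lass2 probes, the 2 myelin glycolipid enzymes and 9 oligodendrocyte markers, in hippocampus (blue) and cortex (red). All 14 hippocampal points lie below 0, from -0.12 (Mobp) to -0.64 (Tmem10), whereas the cortical points lie on both sides of 0.

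The lysosomal partners of acid sphingomyelinase were measured by bright probes. Asah1 at base 1838 differed by 0.01 in hippocampus (-0.20 to 0.22) and by 0.07 in cortex (-0.28 to 0.42). The dim probe at base 11, with signals of 69.4 to 216 over the 12 arrays, had the lowest unadjusted p of the members in cortex. It read 0.46, 0.30 and 0.46 in CTX AMI against -0.08, -0.49 and 0.07 in CTX vehicle, a difference of 0.57 (95% interval 0.24 to 0.91, unadjusted p = 0.00390, adjusted p = 0.756 in limma) with groups that did not overlap. In hippocampus this probe differed by 0.13 (-0.20 to 0.45), and the difference between tissues was -0.45 (unadjusted p = 0.0603). The 2 Asah1 probes thus gave different values for the same gene in cortex. The Asah1 probe at base 430 was detected on 0 of 12 arrays.

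Psap encodes prosaposin, the precursor of the saposins that present sphingolipids to lysosomal hydrolases. It read 6.37, 6.01 and 6.65 in CTX AMI and 6.75, 6.6 and 6.72 in CTX vehicle, overlapping in 1 AMI array, with a difference of -0.35 (95% interval -0.70 to 0.01, unadjusted p = 0.0546, adjusted p = 0.781 in limma). In hippocampus the difference was -0.17 (-0.69 to 0.35), the widest interval of the 14 probes there.

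None of the tested enzymes of entry into and exit from the pathway passed the test. Sptlc1 differed by 0.00 in hippocampus (-0.20 to 0.20) and by -0.10 in cortex (-0.36 to 0.17). Sptlc2 was detected on 1 of 12 arrays and was not tested, with signals of 60.4 to 89.1. The 2 Sgpl1 probes, at bases 3595 and 3779, differed by 0.04 and 0.20 in hippocampus and by -0.08 and 0.07 in cortex, all within intervals that held 0. Ugcg, the first enzyme of glucosylceramide and ganglioside synthesis, read 3.64, 3.38 and 3.43 in HIP AMI and 3.33, 3.35 and 3.36 in HIP vehicle. These groups did not overlap, but the difference of 0.13 (-0.09 to 0.36, unadjusted p = 0.208 in limma) did not pass, and the cortical difference was as large (0.13, -0.15 to 0.41). Across the set, the 2 treatments were without overlap at 4 of 14 probes in hippocampus (background 7.89%). In cortex this held for 4 of 14 (background 12.2%). The 4 in hippocampus were the 3 probes of 1 transcript, Lass2, lower in AMI, and Ugcg, higher. The 4 in cortex were Smpd1 at base 2212 and Smpd3, lower in AMI, and Smpd1 at base 1515 and Asah1 at base 11, higher.

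**Figure D3:**
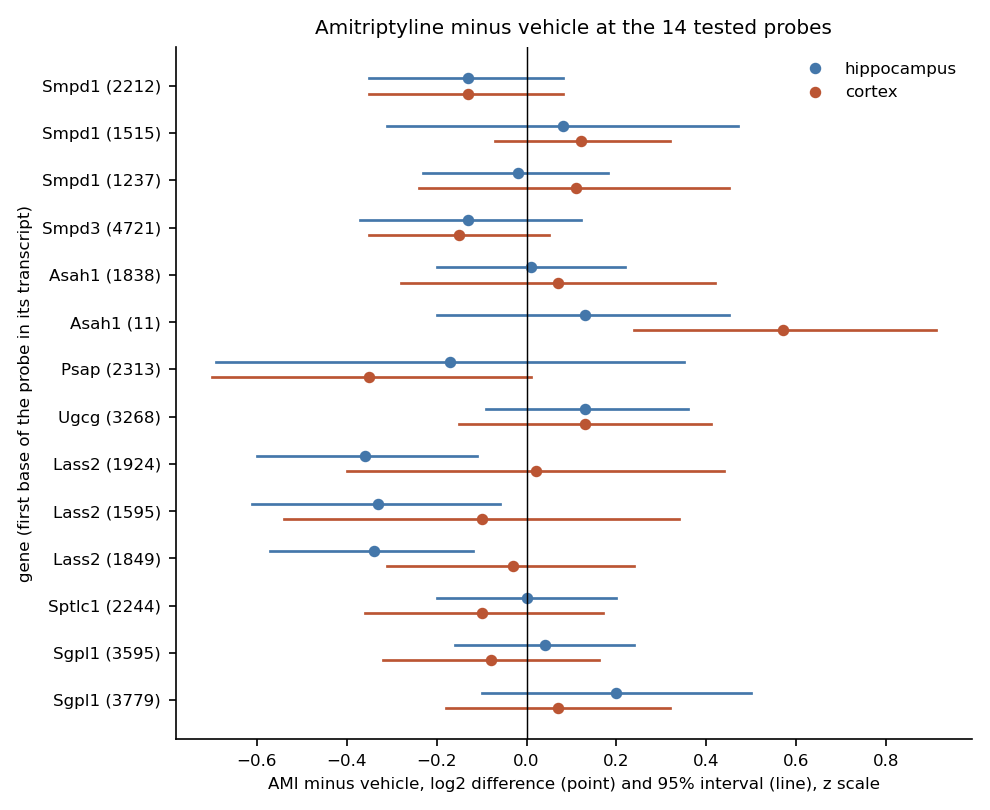
AMI minus vehicle (log2, point) with its 95% interval (line) at the 14 tested probes, in hippocampus (blue) and cortex (red). The interval excludes 0 for the 3 Lass2 probes in hippocampus and the Asah1 probe at base 11 in cortex, none of which passed the adjusted p over all probes.

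Whether AMI acted differently on these genes in hippocampus and cortex was tested itself. None of the 14 probes passed, and none had an unadjusted p under 0.05 (background 0% at the adjusted p and 3.03% at the unadjusted p of 12430 probes, limma). The differences between tissues ran from -0.45 (Asah1, base 11) to 0.18 (Psap).

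Among other genes of sphingolipid metabolism, 55 had a probe, and AMI changed the level of none past the adjusted p (0 of 41 tested in hippocampus and 0 of 44 in cortex, limma). At an unadjusted p under 0.05 there were 3 of 41 in hippocampus (background 2.35%). Besides Ugt8a these were Asah3l, an alkaline ceramidase, at 1.23 ± 0.36 in HIP AMI and 0.56 ± 0.14 in HIP vehicle (difference 0.67, unadjusted p = 0.00410), and Edg8, a receptor for sphingosine 1-phosphate, at -0.06 ± 0.14 and 0.23 ± 0.20 (difference -0.29, unadjusted p = 0.0471). In cortex there were 2 of 44 (background 6.28%). Sphk1, a kinase that phosphorylates sphingosine, was 1.0 ± 0.14 in CTX AMI and 0.48 ± 0.25 in CTX vehicle (difference 0.52, unadjusted p = 0.00529), while its hippocampal difference of -0.32 became 0.15 without HIP vehicle array 3. Col4a3bp, the ceramide transfer protein, was 0.08 ± 0.06 and -0.16 ± 0.10 (difference 0.24, unadjusted p = 0.0335). The median difference of the tested genes was -0.03 in hippocampus and 0.05 in cortex.

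Hippocampus and cortex were compared next, in vehicle and in AMI mice, where tissue and export project cannot be told apart. Of the 14 probes 6 were called in vehicle, 2 higher and 4 lower in hippocampus (background 25.1%, with 15.0% higher and 10.1% lower), and 4 in AMI, 1 higher and 3 lower (background 27.0%, with 15.1% higher and 11.9% lower). The median difference was -0.27 and -0.34, against 0.04 and 0.02 for all 13677 tested probes. The tissues did not overlap at 7 of 14 probes in vehicle (background 40.6%) and at 9 of 14 in AMI (background 42.5%). The SD of log2 signals ran from 1.51 to 1.85 on hippocampal and from 1.42 to 1.68 on cortical arrays, so these values were also computed under other scalings. With median centring and no scaling of the SD the median of all tested probes rose to 0.18 in vehicle and 0.20 in AMI, and the calls of members became 2 higher and 0 lower in vehicle and 2 higher and 1 lower in AMI. Over all probes the share of calls that were higher in hippocampus went from 59.7% to 87.3% in vehicle and from 55.8% to 84.0% in AMI.

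Smpd1 was lower in hippocampus than in cortex, except with median centring. At base 2212 the difference was -0.44 in vehicle (95% interval -0.63 to -0.26, adjusted p = 0.00268 in limma) and -0.44 in AMI (-0.63 to -0.26, adjusted p = 0.00273), or 0.735 and 0.736 of the cortical signal. With median centring it was 0.08 and 0.07, which lies 0.10 and 0.13 under the median of all probes. The order of group means at this probe was CTX vehicle, CTX AMI, HIP vehicle and HIP AMI, in which the 2 treatments of a tissue did not pass the test and the 2 tissues of a treatment did. Striatal markers, at 1.5 to 1.98 in cortex and 0.19 to 0.55 in hippocampus, differed the same way, with 4 of 5 called in vehicle and 3 in AMI. All 5 neuronal markers also had a lower mean in hippocampus (medians -0.33 in vehicle and -0.31 in AMI). Of these, 2 were called in vehicle and 1 in AMI (background 25.1% and 27.0%). All 5 endothelial markers had a lower mean too (medians -0.21 and -0.34). So did 7 of 9 oligodendrocyte markers (-0.21 and -0.4), with 2 higher. Of 8 astrocyte markers 5 were lower in vehicle and 6 in AMI, whereas all 9 microglial markers were higher. The part of these markers in the Smpd1 value was not tested. The probe at base 1515 was -0.32 and -0.37 with adjusted p of 0.111 and 0.0698, and base 1237 was 0.03 and -0.10, so that only 1 of the 3 Smpd1 probes was called.

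Smpd3 went the opposite way and kept its direction under every scaling tried. It was higher in hippocampus by 0.42 in vehicle (95% interval 0.22 to 0.62, adjusted p = 0.00518 in limma) and by 0.45 in AMI (0.25 to 0.65, adjusted p = 0.00353), or 1.34 and 1.37 times the cortical signal. With median centring the differences were 0.73 and 0.78, and with quantile normalization 0.38 and 0.42. The order of group means was HIP vehicle, HIP AMI, CTX vehicle and CTX AMI, with no overlap between the tissues.

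Ugcg followed Smpd1. Its probe read 3.76, 3.74 and 4.11 in CTX vehicle and 4.08, 3.93 and 3.98 in CTX AMI, above all 6 hippocampal arrays. The difference was -0.52 in vehicle (95% interval -0.76 to -0.28, adjusted p = 0.00440 in limma) and -0.52 in AMI (-0.75 to -0.28, adjusted p = 0.00465). With median centring it was -0.03 and -0.02, no longer called. Psap was called in vehicle at -0.71 (-1.17 to -0.24, adjusted p = 0.0297) and not in AMI at -0.53 (-1.0 to -0.07, adjusted p = 0.0838), and became 0.08 and 0.22 with median centring. Sptlc1, a subunit of serine palmitoyltransferase, was -0.33 in vehicle (adjusted p = 0.0280) and -0.23 in AMI (adjusted p = 0.106), and became 0.03 and 0.12. The calls of Psap and Sptlc1 in vehicle depended on the arrays used. That of Psap was lost without HIP vehicle 2 or 3 or CTX vehicle 1 or 3 (-0.54, -0.75, -0.68 and -0.69), and that of Sptlc1 without HIP vehicle 1, 2 or 3 or CTX vehicle 1 or 3 (-0.29, -0.35, -0.34, -0.29 and -0.27).

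The remaining calls rested on single probes of genes with several. The Asah1 probe at base 11 was lower in hippocampus of AMI mice, with a difference of -0.83 (95% interval -1.16 to -0.49, adjusted p = 0.00205 in limma), and -0.73 with median centring. In vehicle it was -0.38 (adjusted p = 0.0885), or -0.54 and called without CTX vehicle 2, and base 1838 was -0.30 and -0.36 with adjusted p of 0.108 and 0.0558. Of Lass2, base 1849 was higher in HIP vehicle by 0.34 (0.10 to 0.57, adjusted p = 0.0398), with overlapping groups, and lost its call without any 1 of 7 arrays (values of 0.23 to 0.34), while base 1595 was -0.23 and base 1924 was 0.06. In AMI the 3 Lass2 probes were -0.32 (base 1924), -0.47 (base 1595) and 0.03 (base 1849), with adjusted p of 0.0624 or more.

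**Figure D4:**
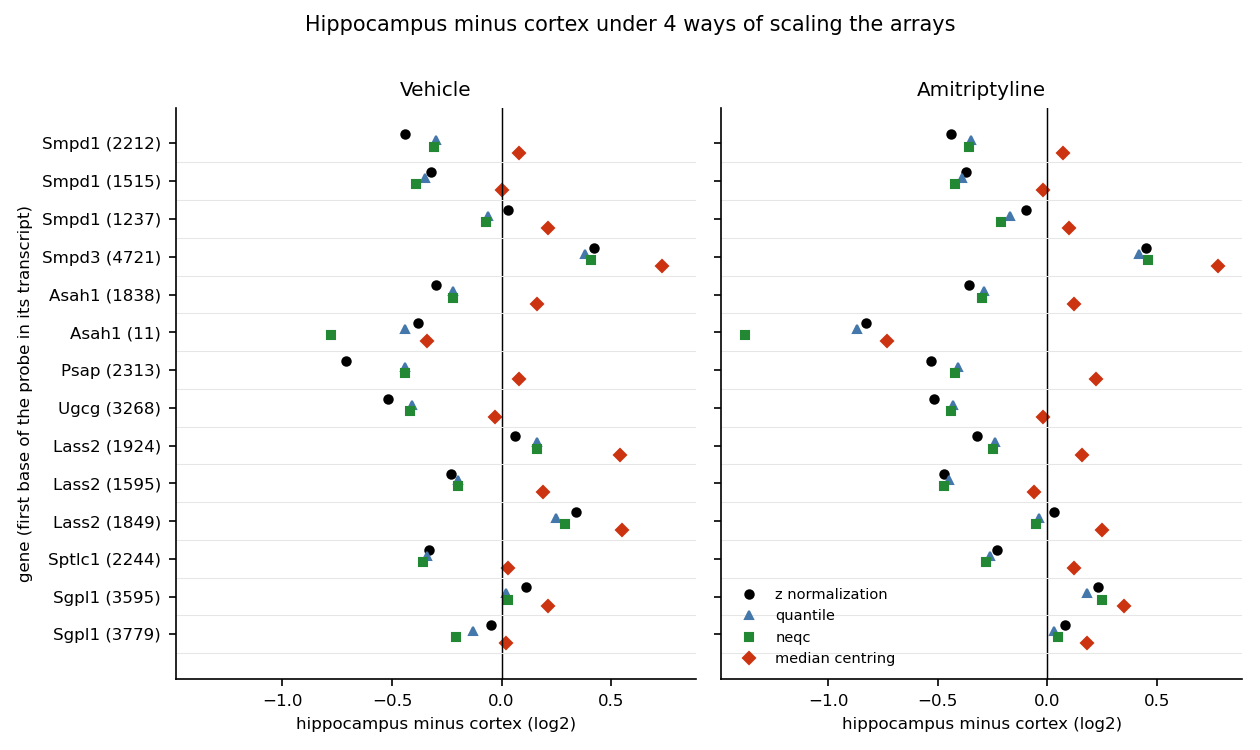
Hippocampus minus cortex (log2) at the 14 tested probes in vehicle (left) and AMI (right) under z normalization (black), quantile normalization (blue), neqc (green) and median centring (red). Smpd3 lies above 0 and the Asah1 probe at base 11 below 0 under all 4, while Smpd1 at base 2212, Psap and Sptlc1 lie below 0 under 3 and above 0 with median centring.

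In the rest of the pathway 13 of 44 tested genes were called between the tissues in vehicle, 7 higher and 6 lower in hippocampus (background 25.1%), and 16 of 44 in AMI, 6 higher and 10 lower (background 27.0%), with medians of 0.01 and -0.05. Among genes of lysosomal ganglioside breakdown, Gm2a, the GM2 activator protein, was higher in hippocampus by 0.34 in vehicle (adjusted p = 0.0122) and by 0.39 in AMI (adjusted p = 0.00530). Glb1, beta-galactosidase, was called in vehicle alone at 0.35 (adjusted p = 0.0474) and Neu1, a lysosomal sialidase, in AMI alone at -0.46 (adjusted p = 0.0112), and the latter became -0.04 with median centring. Without HIP vehicle array 3 the vehicle calls of Gm2a (0.28) and Glb1 (0.30) were lost, and with quantile normalization that of Glb1 (0.28). All 9 tested microglial markers had a higher mean in hippocampus in both treatments as well, with medians of 0.51 and 0.44, and 5 and 4 of the 9 were called (background 25.1% and 27.0%). Their part in these values was not tested.

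Ganglioside synthases were called in both directions. St8sia5 was higher in hippocampus by 0.42 in vehicle (adjusted p = 0.0102) and 0.65 in AMI (adjusted p = 0.000797). St8sia1, the GD3 synthase, is counted among the genes called lower, but it was detected on fewer than 3 of 6 hippocampal arrays and entered the test through cortex alone, with levels of -1.09 in HIP vehicle and -0.49 in CTX vehicle, and of -1.11 in HIP AMI and -0.66 in CTX AMI. St3gal5, the GM3 synthase, was -0.42 (adjusted p = 0.00641) and -0.29 (adjusted p = 0.0355) but 0.00 and 0.12 with median centring. Gal3st1 was called in AMI at -0.59 (adjusted p = 0.00590), with -0.14 in vehicle, and became -0.38 and not called in AMI with median centring.

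Of the de novo enzymes 1110002B05Rik, a small subunit of serine palmitoyltransferase, was higher in hippocampus by 0.66 (adjusted p = 0.00131) and 0.53 (adjusted p = 0.00508). Fvt1, the ketodihydrosphingosine reductase, was lower at -0.62 (adjusted p = 0.0204) and -0.65 (adjusted p = 0.0154). Both calls of Fvt1 were lost with median centring (-0.51 and -0.53) and without both dim arrays (-0.56 and -0.54), and that in vehicle also without HIP vehicle array 3 (-0.60). Among sphingomyelinases Smpd4 was higher by 0.34 (adjusted p = 0.0367) and 0.52 (adjusted p = 0.00416), while in vehicle the call of Smpd4 was lost without HIP vehicle array 3 (0.36), without both dim arrays (0.37) and with quantile normalization (0.26). The phosphodiesterase Smpdl3b was lower at -0.37 (adjusted p = 0.00761) and -0.40 (adjusted p = 0.00434), or -0.22 and -0.24 and not called with median centring. Asah2, the neutral ceramidase, was lower at -0.44 (adjusted p = 0.0182) and -0.52 (adjusted p = 0.00792). Its calls were lost with median centring (-0.23 and -0.32), and that in vehicle without both dim arrays (-0.34).

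Of 6 tested genes of sphingosine 1-phosphate, 1 was called higher and 1 lower in hippocampus in vehicle, and 3 were called lower in AMI. The phosphatase Sgpp2 was -0.60 (adjusted p = 0.00105) and -0.59 (adjusted p = 0.00120), Sphk1 was -1.5 in AMI (adjusted p = 0.00286) with -0.66 in vehicle (adjusted p = 0.121), and Sgpp1 was -0.42 in AMI (adjusted p = 0.0121), which became -0.06 with median centring. Edg8 was higher by 0.44 in vehicle (adjusted p = 0.0368), or 0.37 and not called with quantile normalization, and 0.38 and not called without both dim arrays, and the vehicle value of Sphk1 was -1.14 and called without HIP vehicle array 3. None of 3 lipid transfer genes was called, nor Samd8, the 1 tested gene of sphingomyelin synthesis.

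As a description, the genes whose levels followed a member most closely over the 12 arrays were listed among the 13677 tested probes. For Smpd1 these were Atp6v0d1 (r = 0.978), a subunit of the proton pump that acidifies lysosomes, Rgs9 (r = 0.975), a striatal marker, Nelf (r = 0.968), Trappc4 (r = 0.964) and Grit (r = 0.964). For Smpd3 they were Ttc27 (r = 0.956), Tomm34 (r = 0.956), Lman2l (r = 0.949), Ccnk (r = 0.946) and Pet112l (r = 0.943). For Ugcg they were AW549877 (r = 0.974), the glutamate transporter Slc1a2 (r = 0.970), Centa1 (r = 0.967), 3830408P04Rik (r = 0.966) and Pdcl (r = 0.959). The 12 arrays come from 2 tissues, exported in 2 projects, so that these values describe a shared difference between them as much as any other likeness.

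The promoters of Smpd1, Ugcg and Lass2 are shown from RefSeq (GRCm38.p6). Smpd1 at base 2212 and Ugcg were called lower in hippocampus with z normalization but not with median centring. The 3 probes of Lass2 lay lower in HIP AMI, none past the adjusted p. Shown are the 250 bases before the gene start that lies furthest upstream, 5′ to 3′ on the strand of the gene. Capitals mark the motif GGGCGG or its reverse complement CCGCCC, the GC box bound by Sp1, and the motif CACGTG, the E-box core, which is its own reverse complement. Of the 10 genes 8 had a promoter entry, and Smpd3 and Asah1 had none.
Smpd1, chr7:105554110-105554359, + strand: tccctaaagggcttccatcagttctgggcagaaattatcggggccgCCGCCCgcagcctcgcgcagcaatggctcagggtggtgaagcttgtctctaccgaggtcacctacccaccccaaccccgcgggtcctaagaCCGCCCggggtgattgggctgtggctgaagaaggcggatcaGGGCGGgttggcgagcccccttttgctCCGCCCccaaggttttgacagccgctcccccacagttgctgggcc
Ugcg, chr4:59189300-59189549, + strand: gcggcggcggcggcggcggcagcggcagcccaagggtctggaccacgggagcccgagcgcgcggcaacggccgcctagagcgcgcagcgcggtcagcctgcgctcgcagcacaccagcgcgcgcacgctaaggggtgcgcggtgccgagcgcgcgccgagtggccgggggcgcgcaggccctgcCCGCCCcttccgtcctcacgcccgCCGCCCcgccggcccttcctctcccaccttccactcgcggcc
Lass2 (Cers2), chr3:95314940-95315189, + strand: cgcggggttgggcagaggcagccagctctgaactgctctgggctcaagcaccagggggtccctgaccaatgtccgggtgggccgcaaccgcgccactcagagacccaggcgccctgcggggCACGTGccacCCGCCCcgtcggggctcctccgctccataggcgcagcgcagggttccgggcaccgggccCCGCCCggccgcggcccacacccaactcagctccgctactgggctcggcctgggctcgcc
The motif GGGCGG occurred on either strand in 7 of the 8 promoters, 4 times in Smpd1, 2 times in Ugcg and 2 times in Lass2, and in 32.7% of all 32851 promoters of that length. The motif CACGTG occurred in 1 of the 8, that of Lass2, where it starts 129 bases before the gene start, and in 6.02% of all promoters. These matches describe the letters of the window and were not tied to any value of the arrays.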

How the data were processed

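Members and gene lists were chosen with earlier results of these data known. The authors deposited, per the file headers, the linear mean bead signal (intensity) and a detection p-value of each probe and array from Illumina MouseRef-8 BeadChips, without normalization or background subtraction, exported with BSGX 3.4.0 (hippocampus) and GSGX 1.1.1 (cortex). The submitters' processing notes name BeadStudio 3.4 and GenomeStudio 1.1.1. No genome build is given in the sources used here.

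Log2 signals were taken with no pseudocount, centred on each array's mean, divided by its SD over all probes (z normalization, after the study's methods) and multiplied by the mean SD of 1.60. Where 3 or more of a tissue's 6 arrays had a detection p no higher than 0.05, a probe entered limma 3.58.1 in R 4.3.3 (lmFit, eBayes, two-sided), with Benjamini-Hochberg adjustment over all tested probes, and called at an adjusted p under 0.05. AMI and vehicle were fitted on 6 arrays, tissues and interaction on 12. The code was tested on simulated data. The number of arrays limits the precision. Genes were named by rule: every member probe, other pathway genes where called (at most 4 per list) or where 5 or fewer reached an unadjusted p under 0.05, and the 5 probes most correlated with Smpd1, Smpd3 and Ugcg. Some genes counted in the lists are not reported here by name. Same-numbered hippocampal arrays deviated together (r = 0.604, 0.289 and 0.284), the first pair being the 2 dim arrays. Arrays with different numbers were not compared, so this check cannot show that the samples were paired. A replicate block changed no call of a member in the hippocampal AMI comparison. Alternatives were quantile normalization, median centring, neqc, other filters and variances, array weights, a replicate block, mean probes, other array sets (both dim hippocampal arrays left out was chosen after seeing the data), the methods' t-test, the study's cutoffs and leaving out each array. Python 3.11.15 with pandas 2.3.3, numpy 2.4.6, scipy 1.17.1 and matplotlib 3.10.9 made tables and figures.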

Additional observations from a re-analysis of the deposited data

How the results depend on the processing

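In the AMI comparisons and their difference between tissues, 0 of 14 probes were called under every alternative run, which included the replicate block (0 in each comparison), leaving out each array and, for the AMI comparisons alone, the methods' t-test and the study's cutoffs. Over all probes these alternatives gave at most 3 calls, in cortex with the study's cutoffs. A change of sign was counted only where the difference exceeded its standard error or was called. On that reading 1 sign turned, Smpd1 in cortex, from -0.13 at base 2212 to 0.03 as the mean of its 3 probes, by construction, since the other 2 probes were above 0. Without 1 array the Lass2 differences in hippocampus ran from -0.44 to -0.29, from -0.43 to -0.26 and from -0.40 to -0.30.

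Calls between tissues moved more. In vehicle, 6 member probes became 2 with median centring, 3 with a replicate block, 10 averaged over both treatments, and 3 to 6 without 1 array (3 without HIP vehicle 2 or CTX vehicle 1). In AMI, 4 became 7 with quantile normalization and 10 with array weights, and 4 to 6 without 1 array. The block lost Smpd3, Lass2 and Sptlc1 in vehicle, but same-numbered arrays of the tissues did not deviate in the same direction. Their r ran from -0.331 (AMI arrays 3) to 0.0811 (AMI arrays 2). Between treatments in cortex r was -0.0597, 0.324 and 0.328. The sources used here do not tie same-numbered samples to one another. Median centring turned the sign in vehicle for Smpd1 (0.08 at base 2212, 0.00 at base 1515), Asah1 base 1838 (0.16), Psap (0.08), Lass2 base 1595 (0.19) and Sptlc1 (0.03), and in AMI for Smpd1 base 2212 (0.07), Asah1 base 1838 (0.12), Psap (0.22), Lass2 base 1924 (0.16) and Sptlc1 (0.12). Median centring keeps the SD of log2 signals of each array, which was 1.51 to 1.85 on hippocampal and 1.42 to 1.68 on cortical arrays. Its part in these turns was not tested. Over all probes, calls in vehicle went from 3433 to 2008 with the block and 5891 averaged over both treatments, and in AMI from 3694 to 6787 with array weights and 2237 without CTX AMI 1. A BeadChip block was not run, since the headers used here name no BeadChip. Signals over background limit dim probes: detected probes had a median 2.94 to 5.21 times that of undetected ones, and since no background was subtracted, fold changes of dim probes such as Sgpl1 and Asah1 at base 11 are understated.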
